A study of Mus musculus with 2 samples.

Results

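Granzymes, perforin and the serpins that inhibit granzymes were followed as 8 named genes of the 32285 in the deposited table: the granzymes Gzma, Gzmb, Gzmc and Gzmk, the pore-forming protein Prf1, the granule membrane protein Nkg7, and the serpins Serpinb9 and Serpinb6b. They were chosen by name, and all 8 were detected. The cells were live CD45+ leukocytes sorted from the colon of female mice aged 9 months, and their 3′ transcripts were counted with 10x Chromium v3.1 chemistry. The 5XFAD line is a transgenic mouse model of familial Alzheimer disease, with its transgenes expressed from a neuronal promoter, and the WT mice were their littermates without the transgenes. Cells of 3 mice were pooled into 1 library of each genotype. There is therefore no replicate, and every interval given covers counting error only. Mice within a pool cannot be told apart.

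Cytotoxic lymphocytes store granzymes and perforin together in granules. Perforin opens a path into the target cell, and granzymes cleave proteins there: granzyme A cuts after basic residues, granzyme B after aspartate, granzyme K has a specificity like that of granzyme A, and granzyme C is a relative of granzyme B found in rodents. Nkg7 takes part in granule release. Serpinb9 binds granzyme B irreversibly and protects the cell that made it from its own leaked protease, and Serpinb6b belongs to the same clade of intracellular serpins. In the gut these genes are known from natural killer (NK) cells, group 1 innate lymphoid cells (ILC1) and T cells, intraepithelial T cells among them.

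The genes lie in a few loci of the mouse genome (RefSeq, GRCm38.p6). Gzma (chr13:113093824-113100981, minus strand) and Gzmk (chr13:113171630-113180965, minus strand) are neighbours with 70.6 kb between them and no protein-coding gene in the gap. Gzmc (chr14:56231397-56241647, minus strand) and Gzmb (chr14:56258836-56262334, minus strand) are 17.2 kb apart, also with no coding gene in between. Serpinb6b (chr13:32956811-32979067, plus strand) and Serpinb9 (chr13:32997061-33017955, plus strand) are 18.0 kb apart, with none between them either. Prf1 is at chr10:61297751-61304684 (plus strand) and Nkg7 at chr7:43437138-43438246 (plus strand).

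Near-identical copies can share reads, so the last 500 bases of each gene's coding transcripts (GENCODE vM21), where 3′ reads fall, were compared with all transcripts of other genes. No run of 31 bases was shared for Gzma, Gzmb, Gzmk, Nkg7 or Serpinb6b. For Gzmc 4.04% of such runs also occurred in Gzmb, and for Prf1 and Serpinb9 1.06% and 0.847% occurred in other genes. Neighbouring granzyme genes could thus be counted apart along nearly all of this stretch.

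The upstream sequences of 3 of the genes are shown because they are the ones that hold the letters of a T-box core, and the other genes are given by their counts of matches. Each is the 250 bases before the RefSeq transcript start in GRCm38.p6, read 5′ to 3′ on the gene's strand. They cover chr14:56262335-56262584 (minus strand), chr13:113180966-113181215 (minus strand) and chr7:43436888-43437137 (plus strand). Capitals mark the letters GTGTGA (a T-box core, the family of Tbx21 and Eomes) and TGTGGT (a RUNX core) on either strand, where the other strand reads TCACAC and ACCACA.
Gzmb: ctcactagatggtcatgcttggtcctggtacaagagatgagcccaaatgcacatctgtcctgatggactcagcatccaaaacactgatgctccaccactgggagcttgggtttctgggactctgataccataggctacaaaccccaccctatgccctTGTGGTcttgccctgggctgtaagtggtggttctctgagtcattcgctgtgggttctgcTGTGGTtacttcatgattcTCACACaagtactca
Gzmk: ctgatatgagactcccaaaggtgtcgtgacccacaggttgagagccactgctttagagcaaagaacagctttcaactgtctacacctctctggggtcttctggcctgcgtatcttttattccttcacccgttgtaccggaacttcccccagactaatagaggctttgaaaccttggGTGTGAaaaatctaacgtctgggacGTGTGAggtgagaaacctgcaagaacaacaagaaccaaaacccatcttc
Nkg7: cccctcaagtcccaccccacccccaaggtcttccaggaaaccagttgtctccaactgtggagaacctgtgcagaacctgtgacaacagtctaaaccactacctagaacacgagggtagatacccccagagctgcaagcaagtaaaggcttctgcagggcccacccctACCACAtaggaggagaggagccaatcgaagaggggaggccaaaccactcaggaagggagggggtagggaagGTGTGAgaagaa
The T-box letters occurred in 12.3% and the RUNX letters in 14.0% of 32851 windows of this length in the RefSeq promoter table. Of the 8 genes, Gzmb, Gzmk and Nkg7 held the T-box letters, with 1, 2 and 1 matches. The RUNX letters were in the windows of Gzma, Gzmb, Gzmc, Prf1 and Nkg7, with 1, 2, 2, 1 and 1 matches. The windows of Serpinb9 (33004291-33004540) and Serpinb6b (32965011-32965260) held neither. Both lie inside the gene spans given above, as does the window of Gzmc (56234658-56234907). The window of Prf1 (61297586-61297835) overlaps the start of its gene. For these genes the counts describe the bases before 1 transcript start, and not the sequence upstream of the whole gene. Matched letters describe the sequence only.

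The libraries hold 3443 cells each, with 18604847 unique molecular identifiers (UMIs, one per captured transcript) in 5XFAD and 17939499 in WT, and medians of 5209 and 4938 UMIs per cell. The deposited cluster numbers run from 0 to 16 and carry no names. By marker genes, clusters 0 to 5 are B cell-like. Cluster 8 is regulatory T cell-like (Foxp3, Ctla4), cluster 9 is ILC2-like (Il5, Calca) and cluster 10 is T cell-like (Cd40lg). Cluster 12 is NK or ILC1-like (Ncr1, Klrb1c), cluster 13 is gamma delta T cell-like (Trdc) and cluster 16 is ILC3-like (Il22). Clusters 6, 7, 11, 14 and 15 keep their numbers; cluster 11 holds CD3+ cells led by Cd7 and Klrd1, and cluster 14 CD3+ cells led by Lef1 and with Cd8b1 among its first genes. Clusters 8 to 16 held 787 cells in 5XFAD and 665 in WT. The summed level of 4 B cell markers in clusters 8 to 16 was 45.7 CPM (a gene's UMIs scaled to a common total of all UMIs) in 5XFAD, against 138 CPM in WT, and 4 and 23 cells there had at least 5 UMIs of these markers. No 5XFAD cell had 2500 genes or more, while some WT cells did, and 3 cell barcodes occur in both libraries. Leaving out the cells with B cell markers moved none of the ratios for which it was run by more than their counting error. Leaving out the cells with 2500 genes or more did so only for Gzma in cluster 8, where the log2 bound became -2.78.

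In the summed libraries all the effector genes were highest in the NK or ILC1-like cluster 12, with the exception of Gzmk. They differed in how much of their total lay outside it. In WT alone Gzma was higher in cluster 10, at 386 CPM, than in cluster 12, at 329 CPM. The clusters were made from the same cells, and Gzmc, Gzmb, Serpinb9, Prf1 and Serpinb6b are themselves among the 10 leading genes of cluster 12, so levels by cluster are given as a description. With both libraries summed, cluster 12 held 95.03% of 805 Gzmc UMIs, 74.7% of 2184 Gzmb UMIs, 71.1% of 664 Prf1 UMIs and 57.5% of 1010 Gzma UMIs. It held 60.6% of 3487 Serpinb9 UMIs, 52.6% of 2742 Serpinb6b UMIs and 36.8% of 3202 Nkg7 UMIs. Gzmk, with 45 UMIs in all, had 0 in the 190 cells of cluster 12, which allows up to 3 counts, and 80% of its UMIs in cluster 10.

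**Figure D1:**
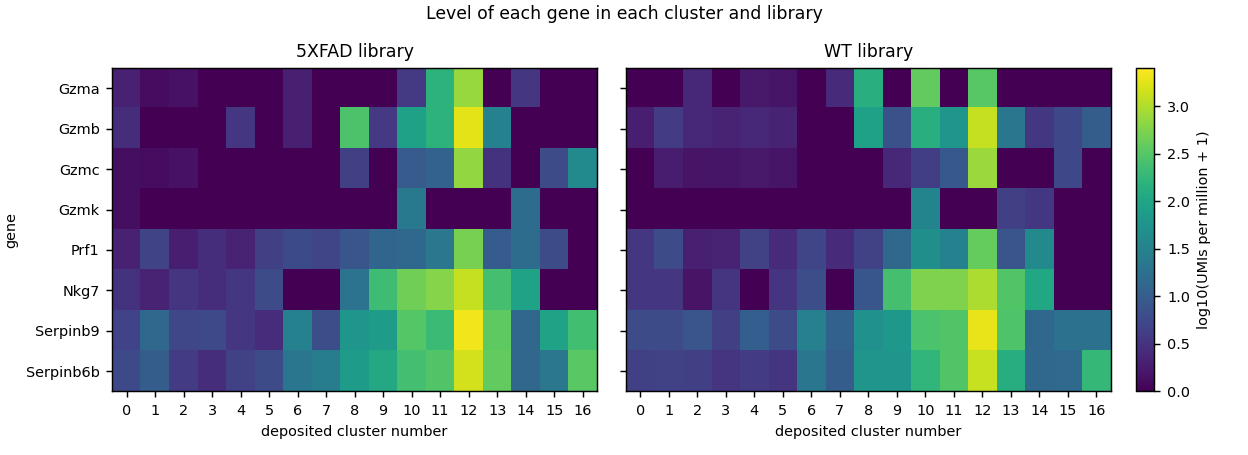
Level of each of the 8 genes (rows) in each deposited cluster (columns), 5XFAD on the left and WT on the right; colour is log10(CPM + 1) of UMIs summed over the cluster's cells, with no error shown. Cluster 12 is the brightest column for 7 of the 8 genes in 5XFAD. The same holds in WT except for Gzma, at 386 CPM in cluster 10 and 329 CPM in cluster 12. Gzmk is seen mainly in cluster 10, and Gzma in clusters 8, 10 and 11 differs between the panels.

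Prf1, the pore former, was at 452 CPM in cluster 12 (95% Poisson interval 412 to 495). The next clusters were 10, 14 and 11, at 29.6, 27.5 and 25.2 CPM, and their intervals overlapped. Clusters 0 to 7 held 10.5% of the Prf1 UMIs in 65 cells, 6.02% of the Serpinb9 UMIs in 154 cells and 5.91% of the Serpinb6b UMIs in 108 cells, and 1.12% to 2.22% of the UMIs of the granzymes and Nkg7. Nkg7 was graded over more clusters, with 1128 CPM in cluster 12, 578 in cluster 11, 496 in cluster 10, 267 in cluster 13 and 235 in cluster 9; the intervals of clusters 13 and 9 overlapped, and those of the higher clusters did not. It was not seen in clusters 15 and 16, with 0 UMIs in 69 and 42 cells.

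With both libraries summed, the clusters that came next in order differed between the granzymes. Gzmb followed its 1562 CPM in cluster 12 with 187 CPM (163 to 214) in the regulatory T cell-like cluster 8, then 113 CPM in cluster 11 and 111 CPM in cluster 10, which overlapped. This order was not the same in each library. In clusters 8, 11 and 10 Gzmb was at 283, 156 and 87.6 CPM in 5XFAD, against 85.97, 58.8 and 137 CPM in WT. Gzma had 556 CPM in cluster 12, 180.3 CPM in cluster 10, 87.4 CPM in cluster 11 and 64.6 CPM in cluster 8, but in the last 2 clusters from 3 cells each. In clusters 10, 11 and 8 Gzma was at 2.83, 157 and 0 CPM in 5XFAD, against 386, 0 and 133 CPM in WT, so its order differed too. Gzmc had 732 CPM in cluster 12 and 23.1 CPM or less elsewhere. Gzmk had 27.3 CPM (19.1 to 37.8) in cluster 10 and 8.76 CPM (3.52 to 18.0) in cluster 14. The neighbouring genes Gzma and Gzmk therefore differed in cluster 12, where summed Gzma was at its highest and Gzmk at 0.

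The serpins were also found where granzymes were scarce. Serpinb9 was at 2023 CPM in cluster 12, 334 CPM in the gamma delta T cell-like cluster 13, 293 CPM in cluster 10 and 246 CPM in cluster 11, each overlapping the next after cluster 12. Serpinb6b was at 1379 CPM in cluster 12 and at 300.2, 285 and 273 CPM in clusters 11, 13 and 16, which overlapped. In cluster 13 the 4 granzymes together had 22 UMIs in 125 cells. In cluster 16 they had 7 UMIs in 42 cells. Across the 17 clusters the log levels of the 2 serpins, neighbours on chromosome 13, had a Pearson correlation of 0.98, as a description over clusters that share 2 libraries.

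Over clusters 8 to 16 together, Gzmb and Serpinb6b were higher in 5XFAD, Nkg7 and Serpinb9 slightly so, and Gzma, Gzmc, Gzmk and Prf1 had intervals that included no change. Gzmb was at 305 CPM in 5XFAD, against 204 CPM in WT, a log2 ratio of 0.58 (counting interval 0.45 to 0.71), with UMIs in 140 and 94 cells. Serpinb6b was at 346 CPM in 5XFAD, against 267 CPM in WT, a log2 ratio of 0.37 (0.26 to 0.49). The ratios of Nkg7 and Serpinb9 were 0.13 (0.03 to 0.24) and 0.16 (0.06 to 0.26). None of the 7 genes with at least 50 UMIs there differed 2-fold, and of all 8602 genes with that count 1.21% were 2-fold higher and 1.84% 2-fold lower in 5XFAD. The median ratio of those 8602 genes was -0.07.

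For Gzma a pooled ratio near 0 went with opposite ratios in separate clusters. It was at 118 CPM in 5XFAD, against 121 CPM in WT, a log2 ratio of -0.03 (-0.22 to 0.15), from 17 and 19 cells. Its 5 top cells held 72.5% of the 5XFAD UMIs and 59.4% of the WT UMIs, and without them the ratio was -0.60. Gzmc, at 93.3 CPM in 5XFAD and 97.5 in WT (-0.06, -0.27 to 0.14), also rested on few cells, and without the 5 top cells of each library its ratio was 0.47. Gzmk had 22 UMIs in each library, from 7 cells in 5XFAD and 11 in WT, with a log2 ratio of -0.20 (-1.12 to 0.72) that became -1.79 (-5.13 to 0.70) without the 5 top cells, from 2 and 6 UMIs. Prf1 was at 73.4 CPM in 5XFAD, against 68.5 CPM in WT (0.10, -0.14 to 0.34).

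**Figure D2:**
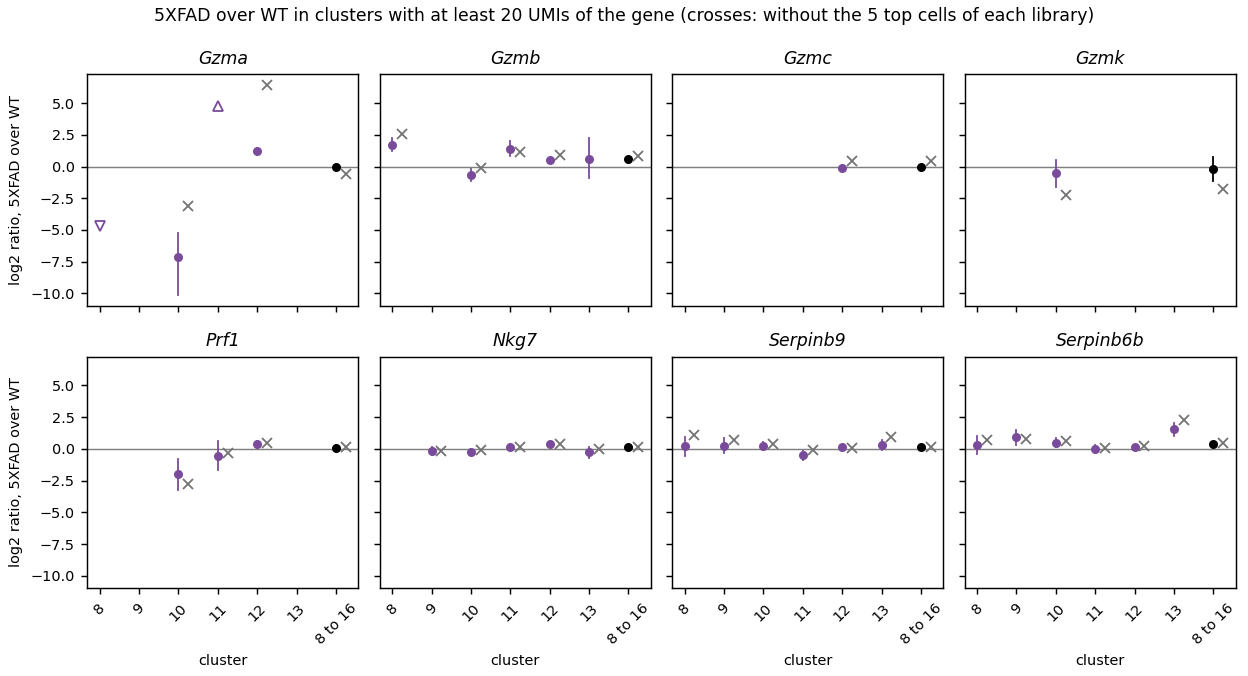
Log2 ratio of 5XFAD over WT for each gene in clusters 8 to 13 with at least 20 UMIs, and in clusters 8 to 16 pooled (black); lines are 95% counting intervals, open triangles are bounds where a library had 0 UMIs, and crosses leave out the 5 top cells of each library, and the cross of Gzma in cluster 10 is itself a bound. Gzma runs from -7.09 in cluster 10 to a bound of 4.79 in cluster 11. The points of Nkg7 and Serpinb9 stay within 0.6 of no change in these clusters. The crosses of Serpinb9 reach 1.10 in cluster 8 and 0.95 in cluster 13. That of Gzma in cluster 12, at 6.44, rests on 1 UMI left in WT.

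To set aside depth, each cell with at least 3000 UMIs was thinned to 3000 UMIs before shares of cells were taken. Shallower cells cannot be thinned to that depth, so thinned shares cover fewer cells than unthinned ones. Over clusters 8 to 16, 14.5% of 5XFAD cells (12.04 to 17.1) and 10.99% of WT cells (8.65 to 13.7) had Gzmb, where the unthinned shares were 17.8% and 14.1%. Serpinb9 was seen in 34.0% of 5XFAD cells and 27.9% of WT cells (unthinned 41.3% and 35.0%), and Serpinb6b in 33.9% of 5XFAD cells and 28.0% of WT cells (unthinned 41.4% and 36.4%). Nkg7 was seen in 41.3% of 5XFAD cells and 41.7% of WT cells (unthinned 49.7% and 49.6%). The share for Prf1 was 9.64% in 5XFAD and 13.2% in WT, against the direction of its CPM, and no order is read from it. The B cell-like clusters 0 to 5 were taken as cells without granzymes. No gene of the 8 was seen there in more than 1.42% of thinned cells in 5XFAD or 1.34% in WT. Median depths were 5086.5 and 4783.5 UMIs. Whether the serpin UMIs there are background was not tested.

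In the NK or ILC1-like cluster 12, with 102 cells in 5XFAD and 88 in WT, Gzma and Gzmb were higher in 5XFAD, and the interval of Gzmc included no change. Gzma was at 754 CPM (684 to 830) in 5XFAD, against 329 CPM (280 to 384) in WT, a log2 ratio of 1.197 (0.93 to 1.47). It was the only 1 of 7 genes with at least 50 UMIs in the cluster to differ 2-fold; of 2923 genes there, 1.23% were 2-fold higher and 1.57% 2-fold lower. The UMIs came from 11 5XFAD cells and 6 WT cells. The cells with at least 2 UMIs held 2, 10, 13, 21, 22, 34, 35, 37, 38, 92 and 117 UMIs in 5XFAD, against 2, 25, 39, 46 and 47 in WT. The 2 sets overlapped, with medians of 34 and 39 UMIs, so the higher 5XFAD sum came with more carrying cells and 2 cells above all others. Without the 5 top cells of each library 102 UMIs were left in 5XFAD and 1 in WT, a log2 ratio of 6.44 (3.93 to 11.76). This removal took 5 of the 6 WT cells with Gzma and left 6 such cells in 5XFAD. The larger ratio follows from the unequal numbers of carrying cells and says nothing on how firm the first ratio is.

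Gzmb in cluster 12 was at 1819.8 CPM in 5XFAD, against 1267 CPM in WT, a log2 ratio of 0.52 (0.38 to 0.67) that was 0.91 without the 5 top cells. It was seen in 67 of 102 5XFAD cells and 48 of 88 WT cells. Cells with at least 2 UMIs had a median of 13 UMIs and a highest value of 69 in 5XFAD, and a median of 8.5 and a highest value of 94 in WT. Thinned shares were 59.6% (49.3 to 69.3) in 5XFAD and 48.8% (37.7 to 60.0) in WT, with overlapping intervals. Gzmc was at 706 CPM in 5XFAD, against 763 CPM in WT (-0.11, -0.32 to 0.10), from 40 and 38 cells, with the top cell at 43 and 72 UMIs; without the 5 top cells the ratio was 0.41.

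The other genes of cluster 12 were also somewhat higher in 5XFAD or level. Prf1 was at 503 CPM in 5XFAD, against 393 CPM in WT (0.36, 0.09 to 0.63), in 77 and 62 cells. Nkg7 was at 1274 CPM in 5XFAD cells, against 960.3 in WT cells (0.41, 0.24 to 0.58). Serpinb6b was at 1451 CPM in 5XFAD cells, against 1298 in WT cells (0.16, 0.01 to 0.31), and Serpinb9 at 2097 CPM in 5XFAD cells, against 1937 in WT cells (0.11, -0.01 to 0.24). The top cell held 3.93% of the Serpinb9 UMIs in each library, 7.83% of the Prf1 UMIs in 5XFAD and 11.5% of those in WT. For Gzma the top cell held 27.8% in 5XFAD and 29.4% in WT.

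**Figure D3:**
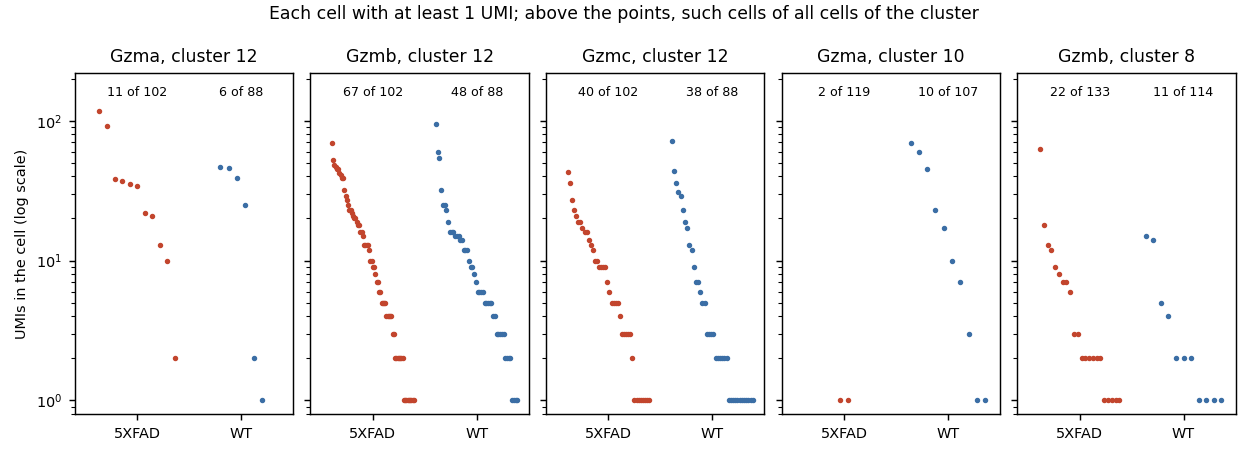
UMIs of a granzyme in each cell that had at least 1 (points, log scale), 5XFAD on the left and WT on the right of each panel, with the number of such cells of all cells of the cluster written above. Gzma in cluster 10 is seen in 10 WT cells, up to 69 UMIs, and at 1 UMI in 2 5XFAD cells; Gzmb in cluster 8 is seen in 22 5XFAD cells and 11 WT cells.

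In the T cell-like cluster 10, Gzma and Prf1 were lower in 5XFAD and the serpins were not. The summed level of the CD8 markers Cd8a and Cd8b1 in this cluster was 103 CPM in 5XFAD, against 226 CPM in WT, and that of the CD4 markers Cd4 and Cd40lg was 517 CPM in 5XFAD, against 335 CPM in WT. Their part in the ratios was not tested. Gzma was at 2.83 CPM (0.34 to 10.2) in 5XFAD, with 1 UMI in each of 2 of 119 cells, and at 386 CPM (338 to 438) in WT, in 10 of 107 cells, a log2 ratio of -7.09 (-10.15 to -5.22). The 8 WT cells with at least 2 UMIs held 3, 7, 10, 17, 23, 45, 60 and 69 UMIs, and 0 of 119 5XFAD cells reached 2 UMIs, which allows a share of up to 2.52%. Of 5 genes with at least 50 UMIs, Gzma was the 1 that was 2-fold lower and none was 2-fold higher, beside 2.25% and 0.955% of all 3245 genes. Gzma reached that minimum through its 236 WT UMIs, with 2 UMIs in 5XFAD, so its place in this count adds nothing to its ratio. Without the 5 top cells of each library 0 UMIs were left in 5XFAD and 22 in WT. With a floor of 3 counts this gives a log2 ratio of -3.08 with a counting limit of -2.66. As only 2 5XFAD cells held Gzma, the 5XFAD 0 was fixed by the removal.

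Prf1 in cluster 10 had 9 UMIs in 8 5XFAD cells and 30 UMIs in 19 WT cells, which are 12.7 CPM in 5XFAD and 49.0 in WT, a log2 ratio of -1.95 (-3.21 to -0.84). Gzmb was at 87.6 CPM in 5XFAD, against 137 CPM in WT (-0.65, -1.15 to -0.16), in 16 and 15 cells, and at -0.13 without the 5 top cells. Nkg7 was at 454 CPM in 5XFAD, against 544 in WT (-0.26, -0.49 to -0.04). Serpinb6b had the opposite sign, with 243 CPM in 5XFAD, against 172 CPM in WT (0.50, 0.14 to 0.87), and Serpinb9 was at 314 CPM in 5XFAD, against 269.7 in WT (0.22, -0.08 to 0.52). Gzmk held 1, 1, 1, 2, 3 and 8 UMIs in 6 5XFAD cells, against 1, 1, 1, 1, 2, 2, 2, 4 and 6 in 9 WT cells. The cells overlapped, and the log2 ratio was -0.53 (-1.58 to 0.49), or -2.21 (-7.83 to 1.12) without the 5 top cells.

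In the regulatory T cell-like cluster 8, Gzmb was higher in 5XFAD and Gzma was seen only in WT. Gzmb was at 283 CPM (242 to 330) in 5XFAD, against 85.97 CPM (63.4 to 114) in WT, a log2 ratio of 1.72 (1.25 to 2.21), with UMIs in 22 of 133 and 11 of 114 cells. The 17 5XFAD cells with at least 2 UMIs held a median of 6 and up to 63 UMIs, and the 7 WT cells a median of 4 and up to 15. Leaving out each library's top cell gave a ratio of 1.57, and leaving out 5 gave 2.58 (1.49 to 3.87). This left 51 UMIs in 17 5XFAD cells and 8 UMIs in 6 WT cells. The removal took 5 of 22 cells with Gzmb in 5XFAD and 5 of 11 in WT. The larger ratio therefore says nothing on how firm the first ratio is. Thinned shares of cells were 14.8% (8.98 to 22.3) in 5XFAD and 7.84% (3.45 to 14.9) in WT and overlapped. Gzma had 0 UMIs in 5XFAD and 74 UMIs in WT, in 3 cells of 57, 14 and 3 UMIs. With 3 counts as the floor for the 5XFAD cells together it was 25.9-fold lower, a log2 ratio of -4.70 with a counting limit of -4.36. Without the top cell the log2 bound was -2.58. Of these 3 WT cells 1 held 71 UMIs of the plasma cell gene Jchain, against 32 in the other 244 cells together, and 1 held 3 UMIs of the epithelial gene Epcam. Their median depth was 7194 UMIs, against 4272.5 UMIs in the other cells, and the part of mixed droplets was not tested. Of 4 genes with at least 50 UMIs, 1 was 2-fold higher and 1 was 2-fold lower, beside 1.42% and 2.56% of 3243 genes. The lower gene was Gzma, which reached 50 UMIs through WT alone, so its place in this count was fixed and adds nothing to its ratio.

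Cluster 11 showed the mirror image for Gzma, again from few cells. It had 104 UMIs in 5XFAD, 99 of them in 1 cell, and 0 UMIs in WT. With a floor of 3 counts in WT it was 27.6-fold higher, a log2 ratio of 4.79 with a counting limit of 4.46. The log2 bound was 0.41 without the top cell. Gzmb was at 156 CPM in 5XFAD, against 58.8 CPM in WT (1.40, 0.81 to 2.03), in 25 of 111 and 13 of 84 cells, and its top cell held 39 UMIs in 5XFAD and 9 in WT. These were the 2 genes of 5 with a 2-fold difference, both higher, where 1.21% of 3229 genes were higher and 1.64% lower. They are not independent, since the 5XFAD cell with 99 Gzma UMIs also held the 39 Gzmb UMIs. Without each library's top cell the Gzmb ratio was 1.21. Among genes picked out after their values were seen, that cell held 4 UMIs of Cd4, against 0 in the 193 cells with fewer than 2 Gzma UMIs. Ikzf2 was at 137 CPM in the 2 cells with more Gzma, against 1808 CPM in those 193. The part of mixed droplets was not tested. Serpinb9 was at 207 CPM in 5XFAD, against 296 CPM in WT (-0.52, -0.86 to -0.18), and at -0.12 without the 5 top cells.

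In 2 clusters with few granzyme UMIs Serpinb6b was higher in 5XFAD. In the gamma delta T cell-like cluster 13, Serpinb6b was at 384 CPM (329 to 444) in 5XFAD, against 132 CPM (93.8 to 180.4) in WT, a log2 ratio of 1.54 (1.03 to 2.08), in 42 of 76 and 17 of 49 cells. It was the 1 gene of 3 that was 2-fold higher and none was lower, where 1.77% of 2038 genes were higher and 1.37% lower. Serpinb9 in the same cells was at 362 CPM in 5XFAD, against 291 in WT (0.31, -0.07 to 0.71). In the ILC2-like cluster 9 Serpinb6b was at 112 CPM in 5XFAD, against 60.3 CPM in WT (0.90, 0.34 to 1.47), and none of 3 genes with 50 UMIs differed 2-fold, beside 1.32% of 3106 genes higher and 1.84% lower.

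In the ILC3-like cluster 16, with 25 cells in 5XFAD and 17 in WT, Serpinb9 had 35 UMIs (233 CPM) in 5XFAD, against 2 UMIs (18.2 CPM) in WT, a log2 ratio of 3.68 (1.72 to 6.78). Without the 5 top cells of each library 6 UMIs were left in 5XFAD and 0 in WT. With a floor of 3 counts this gives 0.44, with a counting limit of -0.32 that includes no change. Only 2 WT cells held Serpinb9, against 9 in 5XFAD, so the WT 0 was fixed by the removal. Serpinb6b there was at 340.0 CPM in 5XFAD, against 182 in WT (0.90, 0.13 to 1.73). Cluster 15 gave Serpinb9 17 UMIs in 5XFAD and 4 in WT, a log2 ratio of 2.30 (0.68 to 4.33). Without the 5 top cells the same floor gave 0.94 with a counting limit of 0.07, where the WT 0 was again fixed, since only 3 WT cells held the gene. The 3 neutrophil markers in that cluster summed to 0 CPM in 5XFAD and 1150 CPM in WT, and the 5 macrophage or monocyte markers to 3797 CPM in 5XFAD and 6546 CPM in WT, and their part in this ratio was not tested. In cluster 14 Prf1 had 6 UMIs in 5XFAD and 16 in WT (-1.44, -3.08 to -0.01). In clusters 0 to 7 Serpinb6b was at 7.21 CPM in 5XFAD, against 4.27 CPM in WT (0.76, 0.28 to 1.24), in 62 of 2656 and 46 of 2778 cells.

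Within cluster 12 the granzymes differed in how many cells held them. At a threshold of 2 UMIs, 13 of 190 cells carried Gzma alone, 55 Gzmc alone and 3 both, and at 1 UMI these numbers were 12, 73 and 5. Whether 3 or 5 shared cells are fewer than their frequencies give was not tested. By library, the cells with both numbered 2 of 102 in 5XFAD and 1 of 88 in WT. A Gzmb UMI was in 15 of 16 Gzma cells, against 100 of the other 174 cells. It was in 54 of 58 Gzmc cells, against 61 of the other 132 cells. Prf1 was in 99 of the 115 cells with a Gzmb UMI. Of the cells without Gzmb, 40 had Prf1 and 35 did not.

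The Gzma cells and the Gzmc cells of cluster 12 also had different levels of other genes, which are named after their values were seen and with no test. Gzma cells had a CPM of 19843 for the chemokine Ccl5, 1560.0 for Prf1 and 112 for the transcription factor Eomes, against 4136, 360 and 12.4 in the other cells of the cluster. The transcription factor Ikzf2 was at 99.8 CPM in the Gzma cells and 680.2 CPM in the others. Gzmc cells had 3996 CPM of the chemokine Xcl1 and 1791 CPM of Serpinb6b, against 2238 and 1189 CPM in the 132 cells with fewer than 2 Gzmc UMIs. Median depth was 4628 UMIs in Gzma cells and 5639 UMIs in Gzmc cells. Serpinb9b, a paralogue of Serpinb9 picked out after its values were seen, had 28 UMIs in cluster 12, all of them in 4 of the 16 Gzma cells, 2 in each library.

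The cells with Gzma and with Gzmk in cluster 10 were few, and the other genes given for them and for the Gzmb cells of cluster 8 were likewise named after their values were seen. At 2 UMIs or more, 8 cells carried Gzma alone, 8 carried Gzmk alone and 0 carried both, of 226; at 1 UMI the numbers were 10, 13 and 2. With genes this rare, few shared cells do not show that they are kept apart. The 8 Gzma cells, all WT, held Nkg7 in 8, Prf1 in 6, Gzmb in 6, Cd8b1 in 7 and Cd8a in 6 cells, and Ctla4 in 0. Of the other 218 cells, 146 held Nkg7, 21 Prf1, 25 Gzmb, 28 Cd8b1, 23 Cd8a and 154 Ctla4. The level of Ccl5 in the Gzma cells was 25354.5 CPM, against 2831 CPM in the other cells of the cluster. The 15 Gzmk cells held Eomes in 10 cells, 617 CPM against 15.4 CPM in the rest of the cluster, Prf1 in 8 and Gzmb in 2 cells. Of the other 211 cells, 7 held Eomes, 19 Prf1 and 29 Gzmb.

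In cluster 8 Prf1 was rare in all cells: 0 of 33 cells with a Gzmb UMI and 5 of the other 214 had it, so the cells with Gzmb cannot be told from the rest by Prf1. In the 24 cells with at least 2 Gzmb UMIs, Nkg7 was at 34.5 CPM (3 cells), against 10.7 CPM in the other cells (6 of 223). Srgn, which binds granzymes in the granule, was at 3675 CPM in these cells, against 2623 CPM in the others. Serpinb9 was in 2 and Serpinb6b in 4 of the 24 cells, 8.33% and 16.7%, against 17.9% and 19.7% of the other 223 cells. Hopx, a homeodomain protein, was at 2424 CPM in these cells and 1007 CPM in the others, and Gata3, a transcription factor of type 2 cells, at 198 CPM in these cells and 493 CPM in the others. In cluster 10, where Gzmb cells numbered 20 at this threshold, Prf1 was in 11 and Serpinb9 in 15 of them. Of the other 206 cells, 16 had Prf1 and 98 had Serpinb9.

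**Figure D4:**
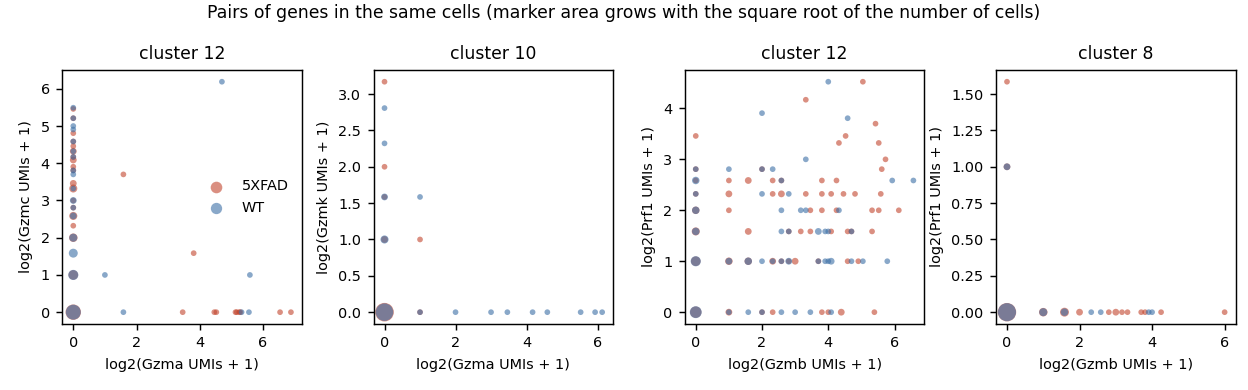
UMIs of 2 genes in the same cells, on log2(UMIs + 1) axes, for 5XFAD (red) and WT (blue); marker area grows with the square root of the number of cells at that point. Gzma and Gzmc in cluster 12 and Gzma and Gzmk in cluster 10 are both above 0 in 5 and 2 cells, Gzmb and Prf1 fill the plane in cluster 12, and all 33 Gzmb cells of cluster 8 lie at 0 Prf1.

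Serpin and effector transcripts were next counted in the same cells, taking as effectors the 4 granzymes and Prf1. In cluster 12, 154 of 190 cells had a UMI of both a serpin and an effector, 34 a serpin only, 2 an effector only and 0 neither. Of its cells with an effector, 97.7% in 5XFAD and 100% in WT had a serpin. That share was 74.5% in cluster 10 and 86.2% in cluster 11, and 26.8% (11 of 41 cells) in cluster 8. Serpins were also seen in cells without an effector, in all 34 of them in cluster 12. Of such cells in cluster 8, 63 had a serpin and 143 did not, and in cluster 11 these numbers were 87 and 50. In cluster 10 they were 59 and 35 in 5XFAD, and 42 and 35 in WT. Whether cells with an effector differ in this from the rest of their cluster was not tested. Serpin without effector was found in 56.6% of 5XFAD cells and 51.0% of WT cells of cluster 13, and in cluster 16 in 64% of 5XFAD cells and 47.1% of WT cells, where 0 of 42 cells had both.

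The number of serpin UMIs per granzyme UMI, a ratio of 3′ tags that is compared here only between clusters and libraries, was 1.08 in 5XFAD and 1.37 in WT in cluster 12. It was 22.9 in 5XFAD and 17.9 in WT in cluster 13, and 0.464 in 5XFAD and 0.508 in WT in cluster 8. In cluster 10 it was 4.58 in 5XFAD and 0.789 in WT, where 236 of the 342 WT granzyme UMIs were Gzma. In cluster 11 it was 1.57 in 5XFAD and 9.00 in WT, with 104 of the 214 5XFAD granzyme UMIs from Gzma. B cell-like cells had a serpin without an effector in 3.596% of 5XFAD cells and 3.47% of WT cells.

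**Figure D5:**
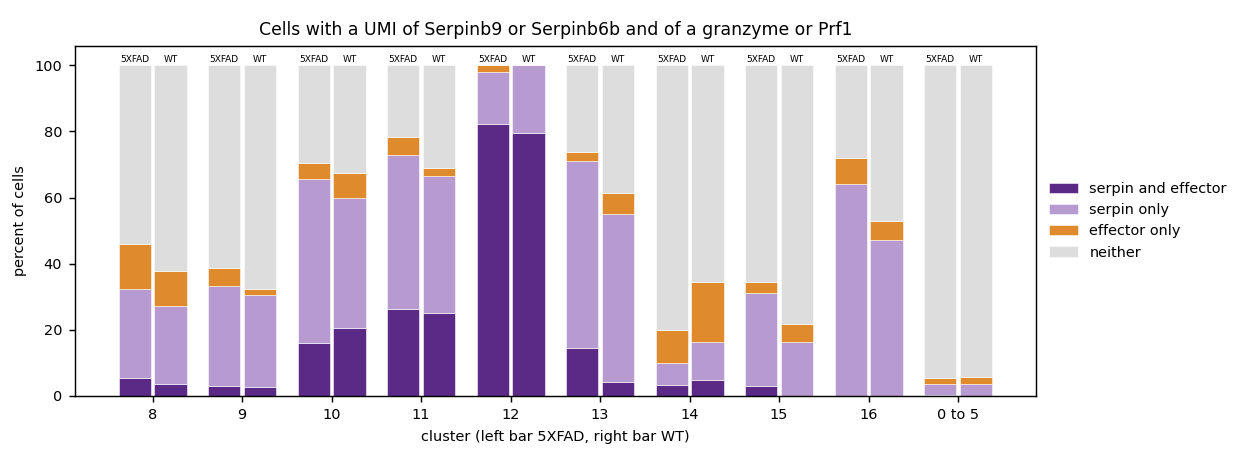
Percent of cells with a UMI of Serpinb9 or Serpinb6b and of a granzyme or Prf1 (both, serpin only, effector only, neither) in clusters 8 to 16 and in the B cell-like clusters 0 to 5, the 5XFAD bar left of the WT bar; shares are unthinned and carry no error. Cells with both fill 82.4% of 5XFAD and 79.5% of WT cells of cluster 12, serpin only fills 56.6% of 5XFAD and 51.0% of WT cells of cluster 13, and effector only is widest in clusters 8 and 14.

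Among other genes of the cytotoxic pathway, a list of 63 that was chosen with earlier results of these data known, 44 had at least 50 UMIs over clusters 8 to 16. Of these 1 was 2-fold higher in 5XFAD, 0 were 2-fold lower and 22 were above 0, where 1.21% of all 8602 genes were 2-fold higher, 1.84% 2-fold lower and 42.0% above 0. The list had a median log2 ratio of -0.03 beside -0.07 for all 8602 genes. The 1 was Hopx, at 379 CPM in 5XFAD, against 178 CPM in WT (1.09, 0.96 to 1.22). Next in size came Serpina3f, a serpin (0.91, 0.28 to 1.57), the transcriptional repressor Zeb2 (-0.87, -1.11 to -0.64), the granzyme substrate Parp1 (-0.85, -1.22 to -0.49), Serpinb1a, an inhibitor of neutrophil-type proteases (0.70, 0.52 to 0.88), and the death ligand Tnfsf10 (-0.68, -1.20 to -0.17).

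The genes that load and process granules differed in both directions by less than 2-fold. Srgn, the proteoglycan on which granzymes are packed, was at 2316 CPM in 5XFAD, against 2119.5 CPM in WT (0.13, 0.09 to 0.17). Ctsc, the protease that activates granzymes, was at 68.0 CPM in 5XFAD, against 90.6 in WT (-0.41, -0.64 to -0.19). Its inhibitor Cst7 was at 31.6 CPM in 5XFAD, against 42.7 in WT (-0.44, -0.77 to -0.10). The granule cathepsin Ctsw was at 171 CPM in 5XFAD, against 127 CPM in WT (0.43, 0.27 to 0.60). In cluster 12 alone Ctsc had the opposite sign (0.88, 0.19 to 1.597), while Cst7 (-0.99, -1.75 to -0.26) and Ctsw (0.26, -0.01 to 0.53) kept theirs.

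The cytokine Ifng had a pooled log2 ratio of 0.26 (0.05 to 0.47) and Ccl5 of 0.20 (0.15 to 0.24), with 0.68 (0.60 to 0.76) for Ccl5 in cluster 12 and -0.44 (-0.53 to -0.36) in cluster 10, the signs of Gzma in those clusters. Serpinb6a, a close relative of Serpinb6b, had a ratio of 0.07 (-0.27 to 0.42). Gzmm, a granzyme also found in humans, had 6 UMIs in each library over clusters 8 to 16, and Serpinb9b had 15 in 5XFAD and 13 in WT. Of the list, 12 genes had 0 UMIs there, among them the granzymes Gzmd, Gzme, Gzmg and Gzmn and 8 serpins of the Serpinb6 and Serpinb9 families; Gzmf, picked out after its values were seen, had 1 UMI in 5XFAD and 8 in WT, each from 1 cell.

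Genes most alike in pattern were those with the highest Pearson correlation of log2(CPM + 10) over the 17 clusters, among 9269 genes with at least 100 UMIs and with the 8 genes themselves left out. Between the 8, Serpinb9 and Serpinb6b (0.98) and Gzma and Gzmb (0.96) were the pairs most alike, closer than any gene named next for Serpinb9, Gzma or Gzmb. The Gzma levels of clusters 8 and 11 came from 3 cells each, all WT in cluster 8 and all 5XFAD in cluster 11. The value for Gzma and Gzmb therefore rests in part on few cells. Outside the 8, Gzma was most like the receptors Klra9 (0.89) and Klre1 (0.89) and the chemokine Ccl5 (0.89), and Gzmc most like the receptor-like kinase Styk1 (0.94) and the receptors Klri2 (0.92) and Klrb1c (0.91). Prf1 came with Styk1 (0.93), Klra9 (0.92) and Pabpc1 (0.89), and Gzmb with Mex3b (0.89), Arl4d (0.88) and Btbd11 (0.88). Nkg7 came with Prkacb (0.93), Gbp4 (0.92) and Pglyrp2 (0.92). For both serpins the most alike of these candidates was the leukotriene receptor gene Cysltr2 (0.96 for Serpinb9 and 0.98 for Serpinb6b), followed by Crot (0.95) and Trim36 (0.94) for Serpinb9 and by the interleukin-18 receptor subunit Il18rap (0.95) and Sytl3 (0.95) for Serpinb6b. Gzmk had fewer than 100 UMIs and was left out. These values rest on clusters, with cluster 12 far from the rest for most of the genes, and 10 of the 21 genes were named again in 5XFAD alone and 4 in WT alone.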

How the data were processed

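Single-cell libraries of live CD45+ colon cells, 1 per genotype and each from 3 pooled mice, were made with the 10x Chromium 3′ kit (v3.1 chemistry), as the labels' protocols state. Cell Ranger 6.0.1 and mm10 are named in the submitters' processing notes, and the cell and gene filters were not given in those sources. The deposited table holds the natural log of 1 plus the UMIs per 10000 UMIs of a cell, for 32285 genes and 6886 cells. With the deposited total count of each cell, 100% of 11758401 nonzero values came back as whole counts within 1e-06, and these counts were used throughout. Deposited cluster numbers, a score with no unit, and the authors' natural log of corrected counts, an alternative, were used too. The deposited percent of mitochondrial UMIs was not used. The library named AD was taken as 5XFAD, since it is the only one not named WT. No doublet caller was run on the deposited cells; cells with at least 5 UMIs of B cell markers were left out as an alternative.

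UMIs were summed by library and cluster and divided by all UMIs (CPM). Intervals are exact at 95%: Poisson for a level, conditional binomial for a ratio, Clopper-Pearson for a share. They cover counting error only, and UMIs rather than reads were counted. With 1 library per genotype no test was made. A 0 was set to 3 counts for a bound, which leaves out the counting error of the other library. Carriers of a gene had at least 2 UMIs (1 for Gzmk). The ratio intervals and the thinning were tested on simulated counts. Those counts were not clumped in few cells, as the granzyme UMIs are, so that test does not cover clumping.

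The 8 genes and the lists were chosen with earlier results of these data known. Other genes were named by rule: the 6 pathway genes with the largest ratio over clusters 8 to 16 among those with at least 50 UMIs, a further set named whatever their value, and the 3 most alike genes for each of the 8 with at least 100 UMIs. Exceptions are stated. Alternatives covered scaling, thinning to 2000 UMIs, cells left out, the corrected counts, carriers with at least 1 or 5 UMIs (both chosen after seeing the data) and a minimum of 20 UMIs. Python 3.11.15, numpy 2.4.6, scipy 1.17.1, pandas 2.3.3 and matplotlib 3.10.9 were used.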

Additional observations from a re-analysis of the deposited data

Results flagged for a closer look

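The 5XFAD over WT log2 ratio took opposite signs in different clusters for 5 of the genes, and the difference between clusters was not tested, since each genotype is 1 library. For Gzma the ratio in cluster 11 minus that in cluster 10 was 11.88, where the first is a bound from 104 UMIs in 3 5XFAD cells and 0 in WT. For Gzmb the ratio in cluster 8 minus that in cluster 10 was 2.37. For Prf1 the ratio in cluster 12 minus that in cluster 10 was 2.30, and for Nkg7 the same difference was 0.67. For Serpinb9 the ratio in cluster 16 minus that in cluster 11 was 4.20, from 35 UMIs in 5XFAD and 2 in WT in cluster 16.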

How the results depend on the processing

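No paired analysis was possible because each genotype has 1 library and the labels give no replicate numbers. Without the 5 top cells of each library, the log2 ratio over clusters 8 to 16 was -0.60 for Gzma, 0.84 for Gzmb, 0.47 for Gzmc and -1.79 for Gzmk; for Gzmc this has the opposite sign to the -0.06 of all cells. Thinned to 2000 UMIs, the log2 ratio of shares for Prf1 was 0.21, beside -0.46 at 3000 UMIs. With carriers set at 5 UMIs, 0 of 2 Gzmk cells of cluster 10 had Gzma, too few to read. With a minimum of 20 UMIs, the pathway genes that were 2-fold lower numbered 1 over clusters 8 to 16, 1 in cluster 8, 3 each in clusters 9, 10, 11 and 12 and 2 in cluster 13, and those 2-fold higher in cluster 13 numbered 2; 46, 33, 32, 38, 33, 38 and 29 list genes reached that minimum, and 3.42%, 5.26%, 4.52%, 5.59%, 4.08%, 4.84% and 4.12% of all genes were 2-fold lower, with 4.89% higher in cluster 13. Of the 21 most alike genes 2 were named again with Spearman's rho, 10 in 5XFAD alone and 4 in WT alone. Under all alternatives, 102 values of the pooled ratios, shares, shared cells and counts stayed close to their first value and 17 did not; for ratios in separate clusters these numbers were 260 and 17, and no called value changed sign. The cause of the changes was not tested. Differences between mice cannot be seen in a pooled library, and granzyme sums rest on few cells: 17 in 5XFAD and 19 in WT for Gzma.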
